A study of Arabidopsis thaliana with 22 samples.

Results

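The comparison described here is that of the *frs7 frs12* double mutant of *Arabidopsis thaliana* with the Col-0 wild type deposited in the same table of counts. Its members are all genes of that table in 4 RNA-seq libraries, 2 of *frs7 frs12* and 2 of Col-0, out of 12 distinct RNA-seq libraries in the series. Some values are also given for the mutants *ahl22*, *hda15-1* and *ahl22 frs7 frs12*, with 2 libraries each. The tables of *ahl22* and *hda15-1* hold the same Col-0 pair as that of *frs7 frs12*. The seedlings were 5 days old, were kept in long days (16 h light, 8 h dark), and were sampled whole, as roots and shoots together. The double mutant carries T-DNA insertions in *FRS7* and in *FRS12* and is represented by 1 line. The replicates are described as biological, but nothing ties a mutant replicate to a Col-0 replicate. A further pair of Col-0 libraries was deposited in the table of the *ahl22 frs7 frs12* triple mutant. It is called the second Col-0 pair here, and the pair in the table of *frs7 frs12* is called the own-table pair. The labels describe 2 Col-0 RNA samples, which match the own-table pair by name. The second pair is known as Col-0 from its column names alone, holds other counts and could be tied to no labelled sample, so its origin is uncertain, as is with it the meaning of every value given against it. Its level of *AHL22* was also low (below), but neither pair is taken here as the better control. The counts of calls and the main results are given against both pairs, because the pairs differed from each other by more than replicates did. For some genes that were not called, the value against the own-table pair alone is given.

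FRS7 and FRS12 belong to the FHY3/FAR1 family, which descends from transposases of Mutator-like elements and supplies transcription factors of light signalling. Both proteins are known in Arabidopsis as repressors of transcription that act on flowering time, on elongation growth and, with the adaptor NINJA, on the synthesis of glucosinolates. *GIGANTEA* (*GI*), a clock gene that promotes flowering, and *PIF4*, which promotes elongation of the hypocotyl, are among their known targets. The question of the comparison was which transcripts change when both genes are lost.

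The 4 libraries held 12771163 to 17236705 counts, and the second Col-0 pair held 14021153 and 14973353. Across genes, log2(CPM + 1) correlated at 0.994 between the *frs7 frs12* replicates, at 0.9954 within the own-table pair and at 0.9932 within the second pair. The *frs7 frs12* libraries correlated at 0.9575 to 0.9591 with the own-table pair and at 0.9878 to 0.9896 with the second pair, and the Col-0 pairs correlated at 0.9616 to 0.9673 with each other. These coefficients are across genes within libraries and describe distance only. The *frs7 frs12* libraries were thus nearer to the Col-0 pair of another table than to the Col-0 pair of their own. The *ahl22* libraries likewise correlated at 0.9606 to 0.9626 with the own-table pair and at 0.9899 to 0.9933 with the second pair. Those of *hda15-1* had the other order, at 0.9785 to 0.9832 and at 0.9692 to 0.9751.

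A gene was called upregulated (UG) where its log2 fold change exceeded 1, or downregulated (DG) where it was under -1, with an adjusted p under 0.05, by the quasi-likelihood test of edgeR with Benjamini-Hochberg adjustment over all genes tested. Against the own-table pair, 1375 of 19144 genes were UGs (7.18%) and 2231 were DGs (11.7%). Against the second pair, 122 of 18779 genes were UGs (0.65%) and 203 were DGs (1.08%). The second Col-0 pair against the own-table pair gave 1271 UGs (6.61%) and 1906 DGs (9.92%) among 19214 genes, so that the 2 Col-0 pairs stood apart by about as many genes as the mutant and its own control. The table a Col-0 pair came with and the levels of its genes cannot be told apart by design, and no cause of the difference was tested. The median log2 fold change of the UGs of the own table was 1.31 against the own-table pair and 0.21 against the second pair, and that of the DGs was -1.80 and -0.34. Of the 2231 DGs, 1682 were tested against the second pair, and the value of -0.34 covers those alone. In the same direction against both pairs, 72 of 18494 genes were UGs (0.389%) and 134 were DGs (0.725%). These 206 genes were 5.24% of the UGs and 6.01% of the DGs of the own table. The comparisons share the *frs7 frs12* libraries, so a call against both pairs is not an independent repeat.

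The mutated genes were measured first. *FRS12* (AT5G18960, chromosome 5, 6330297 to 6333650 in TAIR10.1) was at 29.6 and 34.1 CPM (counts scaled to library size, TMM-normalized) in the own-table pair, at 36.9 and 38.2 CPM in the second pair and at 4.04 and 4.17 CPM in *frs7 frs12*. The mutant libraries were below all 4 Col-0 libraries, with a log2 fold change of -2.95 ± 0.17 (SE, n = 2 and 2, edgeR adjusted p = 4.83e-13) against the own-table pair and of -3.18 ± 0.15 (edgeR adjusted p = 1.13e-08) against the second pair. *FRS7* (AT3G06250, chromosome 3, 1888834 to 1892830) was at 15.0 and 13.6 CPM in the own-table pair, at 13.9 and 18.6 CPM in the second pair and at 11.3 and 9.23 CPM in the mutant. Its mutant values were also the lowest, but the log2 fold changes of -0.49 ± 0.17 (edgeR adjusted p = 0.0196) and -0.66 ± 0.19 (edgeR adjusted p = 0.0458) did not reach the fold threshold. The counts are sums over all exons, so they do not show which part of the *FRS7* transcript was read in the mutant, and *FRS12* overlaps the gene AT5G18970.

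*AHL22* and *HDA15* were not mutated in the double mutant. In this series, AHL22 is studied as a partner of FRS7 and FRS12, and HDA15 as a partner of AHL22. *AHL22* (AT2G45430), which encodes an AT-hook protein of the nuclear matrix, was at 18.4 and 16.7 CPM in the own-table pair, at 1.75 and 1.45 CPM in *frs7 frs12* and at 2.99 and 3.02 CPM in the second pair. It was a DG against the own-table pair (log2 fold change -3.47 ± 0.23, edgeR adjusted p = 8.03e-12) and was not called against the second pair (-0.91 ± 0.39, edgeR adjusted p = 0.213). *AHL22* was therefore low in *frs7 frs12* and in 1 of the 2 Col-0 pairs alike. *HDA15* (AT3G18520), a histone deacetylase gene, was at 54.8 and 56.1 CPM in the own-table pair, at 34.2 and 37.7 CPM in the mutant and at 40.1 and 37.6 CPM in the second pair, and it was called against neither.

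**Figure D1:**
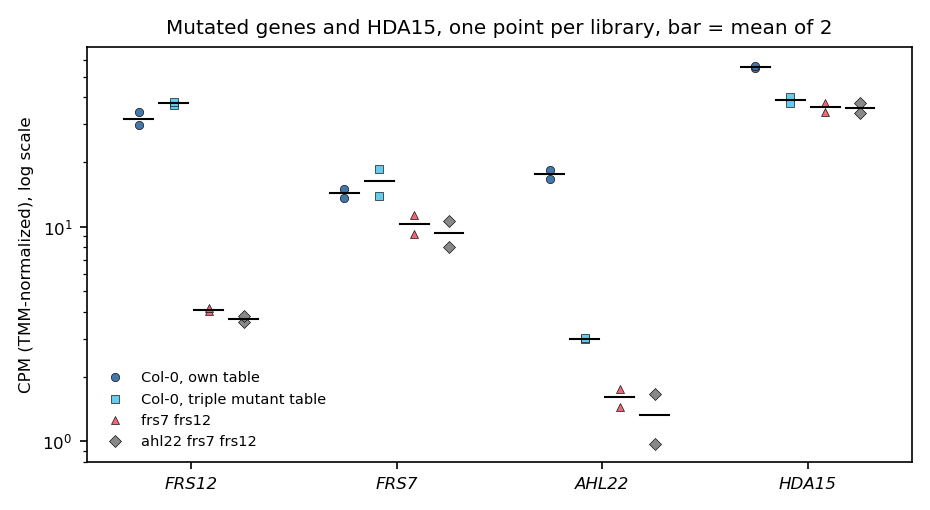
Level of *FRS12*, *FRS7*, *AHL22* and *HDA15* in CPM on a log axis, with a point for each library and a bar at the mean of 2, in both Col-0 pairs, *frs7 frs12* and, for reference, *ahl22 frs7 frs12*. *FRS12* lies near 4 CPM in both mutants and near or above 29.6 CPM in Col-0, whereas *AHL22* is high only in the own-table Col-0 pair among the groups drawn.

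Among the 14 members of the FHY3/FAR1/FRS family that were tested, *FRS12* was the 1 member called (a DG against either pair). The most abundant members were *FHY3*, *FRS8* and *FRS3*. *FHY3*, a founding member and a positive regulator of phytochrome A signalling, was at 43.6 and 46.5 CPM in the own-table pair and at 42.2 and 44.0 CPM in the mutant (log2 fold change -0.07). Apart from *FRS12*, the members ranged from -0.73 (*FRS8*) to 0.72 (*FRS1*) against the own-table pair, and, without *FRS7*, from -0.38 (*FAR1*) to 0.32 (*FRS6*) against the second pair. *FRS8* shares a stretch of near-identical sequence with another gene, so its counts are less certain. The median of the family was -0.15 against the own-table pair, beside 0.02 over all genes tested.

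Of 357 entries in 26 gene lists, 317 were tested against the own-table pair. The lists were chosen for seedlings and for the known roles of FRS7 and FRS12, with earlier results of these data known. A share of calls above that of all genes is therefore no independent support for a list. Among these, 28 were UGs and 82 were DGs, beside 7.18% and 11.7% of all genes tested, and the counts of each list below stand beside the same shares. With the second pair as control, 297 were tested, 7 were UGs and 16 were DGs, beside 0.65% and 1.08% of all genes tested, and 16 were called in the same direction against both. The list genes named below beyond the 3 most abundant of each list were chosen after their values were seen.

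**Figure D2:**
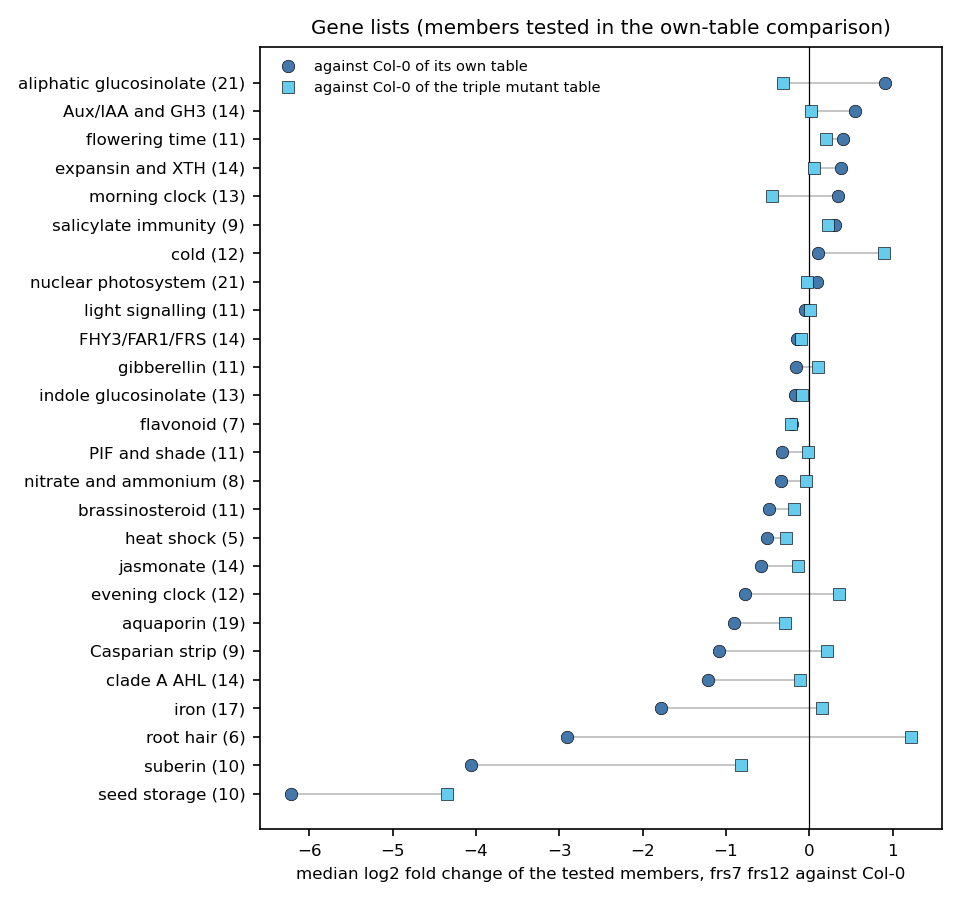
Median log2 fold change of the tested members of each list in *frs7 frs12*, against the own-table Col-0 pair (circles) and against the second pair (squares), with the number tested in the own-table comparison in parentheses. Seed storage genes lie far below 0 against either pair (-6.22 and -4.35), values that the filter on low counts set in part. The root hair list has -2.91 over 6 tested genes and 1.22 over the 2 tested against the second pair, and the aliphatic glucosinolate list 0.91 and -0.32.

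Genes for seed reserves were lower in *frs7 frs12* than in either Col-0 pair. The 12S cruciferins, the 2S albumins and the oleosins are made in the maturing embryo, and their transcripts decline after germination. Against the own-table pair, 9 of 10 tested members were DGs and none was a UG (0 of 10 at an unadjusted p below 0.05 and 0 by DESeq2), with a median log2 fold change of -6.22, or -4.42 with the 5 genes whose mutant libraries lay at or under 3 counts set to their bound. Against the second pair, 6 of 6 tested members were DGs, with a median of -4.35. The list has 13 entries, and members with few counts in both groups were filtered out before testing. The 6 tested against the second pair passed the filter by their Col-0 level, so their direction was largely set by the filter. Against the own-table pair, the 5 genes at or under 3 mutant counts passed it in the same way. The count of 9 of 10 and the median of -6.22 were therefore also set in part by the filter. The summed level of the list was 84.4 and 74.3 CPM in the own-table pair, 13.8 and 12.6 CPM in the second pair and 2.28 and 2.39 CPM in *frs7 frs12*, so the mutant was below both pairs and the pairs were also apart from each other. *CRA1* (AT5G44120), a cruciferin gene, was at 20.65 and 20.3 CPM in the own-table pair, at 2.50 and 2.56 CPM in the second pair and at 0.152 and 0.111 CPM in the mutant. It fell by 7.22 ± 0.33 on the log2 scale (SE, edgeR adjusted p = 1.18e-14) against the own-table pair and by 4.2 ± 0.66 (edgeR adjusted p = 0.00111) against the second pair. *CRU3*, another cruciferin gene, fell by 6.67 and 3.52, and *SESA2*, an albumin gene and the third in abundance, by 7.43 and 4.4. *SESA1*, a further albumin gene, had 1 count in the mutant libraries together, 117 in the own-table pair and 45 in the second pair, a ratio of 138 (95% counting interval 24.3 to 5500) and of 47.3 (8.07 to 1910). The calls of *CRA1* and *CRU3* against the second pair held with DESeq2 and without any single library, whereas that of *SESA2* was lost with DESeq2 and without each library in turn, and those of *SESA1*, *SESA3* and *SESA5* were lost without some libraries. *ICL* (AT3G21720), which encodes the isocitrate lyase of the glyoxylate cycle that turns seed oil into sugar, was also among the genes called against both pairs (below). *CRA1* was at 0.0708 and 0.501 CPM in *ahl22* and at 0 in both libraries of the triple mutant, so it was low in other mutants of the series as well. No cause of these levels was tested.

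The sequence before the start of seed storage genes commonly holds the RY element (CATGCA, or TGCATG on the other strand, which overlap where they read CATGCATG), the letters bound by B3 factors of embryo maturation. Within 250 bases before the annotated start, it was present in 12 of 13 genes of the seed storage list (92.3%), in 2272 of 26709 protein-coding genes of the table (8.51%), in 10.7% of the DGs and in 8.89% of the UGs of the own table. The list was chosen for its function, and such a match is a description of sequence, not of binding. The 200 bases before the start of 3 of the genes given with values above are shown, 5′ to 3′ on the strand of the gene, from RefSeq TAIR10.1, with the RY element in capitals. *CRA1* lies on the minus strand (chr5:17758337-17758536), and *CRU3* (chr4:14087356-14087555) and *SESA1* (chr4:13607129-13607328) lie on the plus strand.
CRA1: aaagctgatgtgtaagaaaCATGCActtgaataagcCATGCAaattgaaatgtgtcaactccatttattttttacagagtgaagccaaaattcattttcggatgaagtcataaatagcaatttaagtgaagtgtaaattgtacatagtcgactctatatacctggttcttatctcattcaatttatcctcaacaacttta
CRU3: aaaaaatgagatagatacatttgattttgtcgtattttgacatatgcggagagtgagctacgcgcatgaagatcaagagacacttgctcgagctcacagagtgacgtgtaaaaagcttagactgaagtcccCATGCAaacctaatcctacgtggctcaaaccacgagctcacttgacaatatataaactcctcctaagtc
SESA1: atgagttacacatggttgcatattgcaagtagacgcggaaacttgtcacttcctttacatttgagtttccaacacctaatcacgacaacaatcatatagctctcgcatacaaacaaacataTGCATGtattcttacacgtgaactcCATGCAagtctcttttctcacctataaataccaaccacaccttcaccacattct

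Among the clock genes, *LHY*, *PRR5* and *FKF1* were called in opposite directions against the 2 Col-0 pairs. The morning-phased loop is led by the MYB-like repressors CCA1 and LHY and the LNK coactivators, and the evening-phased loop by TOC1, PRR5, GI, the evening complex and the blue-light receptor FKF1. Against the own-table pair, 3 of 13 morning genes were UGs and 1 was a DG (median log2 fold change 0.35), and 3 of 12 evening genes were DGs and none was a UG (0 at an unadjusted p below 0.05 and 0 by DESeq2; median -0.77). With the second pair, 1 morning gene was a DG (median -0.45), and 2 evening genes were UGs (median 0.35). *LHY* was at 4.49 and 4.30 CPM in the own-table pair, at 10.8 and 11.9 CPM in *frs7 frs12* and at 27.2 and 22.3 CPM in the second pair, so the mutant lay between the Col-0 pairs. It rose by 1.37 ± 0.21 (edgeR adjusted p = 6.78e-06) against the first and fell by 1.11 ± 0.16 (edgeR adjusted p = 0.000489) against the second, the latter call being lost without 1 library of the second pair. *PRR5*, a repressor of the morning genes, was at 43.2 and 54.6 CPM in the own-table pair, at 14.2 and 16.3 CPM in the mutant and at 5.63 and 6.17 CPM in the second pair, and its log2 fold changes were -1.67 ± 0.13 (edgeR adjusted p = 2.07e-10) and 1.38 ± 0.19 (edgeR adjusted p = 0.000342). *FKF1* had the same order, at 11.9 and 10.9, 5.18 and 3.33, and 1.53 and 0.656 CPM, with log2 fold changes of -1.45 and 1.96, the latter call being lost without the first mutant library. *GI*, the known target, was at 134 and 159 CPM in the own-table pair, at 58.0 and 61.8 CPM in the mutant and at 47.4 and 43.7 CPM in the second pair. It was a DG against the own-table pair (-1.29 ± 0.09) and was not called against the second (0.40 ± 0.10, edgeR adjusted p = 0.029). The other most abundant clock genes gave smaller values. *PRR7* was at log2 fold changes of 0.01 and 0.22, *RVE4* at -0.10 and 0.05, *CHE* at 0.16 and -0.16 and *ZTL* at -0.76 and 0.005 against the own-table and the second pair, and none was called. *LNK2*, which overlaps 2 other genes, was a UG against the own-table pair (1.15) and was not called against the second (-0.19). No cause of the order of these levels was tested.

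The evening element (AAAATATCT, or AGATATTTT on the other strand), the letters bound by CCA1 and LHY, was present within 250 bases before the start of 5 of 12 evening genes (41.7%) and of 640 of 26709 genes (2.4%). None of the 13 morning genes had it, whereas 7 of them (53.8%) had the G-box CACGTG, beside 6.58% of all genes. The G-box was also present in 2 of 12 evening genes (16.7%) and in 7 of 13 seed storage genes (53.8%), so it was not particular to the morning list. The upstream 200 bases of the 2 evening genes with opposite calls, *PRR5* (chr5:8358547-8358746, minus strand) and *FKF1* (chr1:25508439-25508638, plus strand), and of *LUX* (chr3:17182842-17183041, plus strand), which encodes a DNA-binding subunit of the evening complex and was called against neither pair, are given with the element in capitals.
PRR5: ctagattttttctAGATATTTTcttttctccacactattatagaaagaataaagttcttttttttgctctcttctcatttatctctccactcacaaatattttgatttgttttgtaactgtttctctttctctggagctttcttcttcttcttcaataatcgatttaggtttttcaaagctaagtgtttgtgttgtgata
FKF1: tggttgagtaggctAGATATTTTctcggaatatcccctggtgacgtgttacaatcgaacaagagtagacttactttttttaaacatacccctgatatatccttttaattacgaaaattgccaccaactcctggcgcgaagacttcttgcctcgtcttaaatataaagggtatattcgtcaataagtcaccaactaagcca
LUX: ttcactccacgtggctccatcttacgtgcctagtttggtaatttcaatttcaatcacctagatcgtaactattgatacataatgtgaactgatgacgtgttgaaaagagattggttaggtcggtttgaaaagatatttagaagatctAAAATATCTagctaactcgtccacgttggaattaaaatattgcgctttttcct

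A shorter motif, CACGCGC, which reads as GCGCGTG on the other strand and is known as the site bound by FHY3 and FAR1, was present in 1.08% of all promoters, in 1.04% of the UGs and 0.856% of the DGs of the own table, and in 2 of 72 UGs and 1 of 134 DGs called against both pairs. These shares describe letters in a window of 250 bases.

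In the flowering time list, 2 of 11 tested members were UGs against the own-table pair and 1 against the second, and none was a DG (2 of 11 were lower at an unadjusted p below 0.05 against the own-table pair and 1 against the second, and DESeq2 called 0). *CO*, the gene through which long days induce flowering, was called against both. It was at 1.35 and 0.730 CPM in the own-table pair, at 1.46 and 2.16 CPM in the second pair and at 3.73 and 4.835 CPM in *frs7 frs12*, and it overlaps the genes AT5G15843 and AT5G15845. The mutant libraries were the highest, with log2 fold changes of 2.02 ± 0.40 (edgeR adjusted p = 0.000157) and 1.25 ± 0.36 (edgeR adjusted p = 0.0488), but the call against the second pair was lost with DESeq2 and without 3 of the 4 libraries. *FLM*, a repressor of flowering, was a UG near the fold threshold against the own-table pair (1.01), a call lost with DESeq2. *FT*, the florigen gene, had 11 counts in the mutant, 0 in the own-table pair and 10 in the second pair and was not tested. *TEM2*, *TEM1* and *SVP*, the most abundant members and all repressors of flowering, had log2 fold changes of -0.26, -0.11 and 0.29 against the own-table pair and were not called.

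Among cold-response genes, the upstream *CBF* genes were higher in the mutant than in either Col-0 pair. The CBF factors are induced within minutes by cold and activate *COR* genes such as *COR47* and *COR15A*. All 3 *CBF* genes of the list, which lie side by side on chromosome 4, were UGs against both pairs. *CBF2* was at 4.63 and 3.81 CPM in the own-table pair, at 4.87 and 4.59 CPM in the second pair and at 10.7 and 11.2 CPM in *frs7 frs12*. Its levels did not overlap, and it rose by 1.37 ± 0.21 (edgeR adjusted p = 9.66e-06) and by 1.22 ± 0.21 (edgeR adjusted p = 0.00229), with both calls kept under DESeq2 and without any single library. *CBF3* rose by 3.70 and 1.36 and *CBF1* by 1.59 and 3.22, but their calls against the second pair were lost with DESeq2, as was that of *CBF1* against the own-table pair. Each of these calls was also lost without some of the libraries. In *ahl22 frs7 frs12* against the second pair, *CBF2* and *CBF3* had log2 fold changes of 0.70 and 0.20 and were not called, and *CBF1* was not tested. Among the abundant targets, *COR413-PM1* was at 407 CPM in each library of the own-table pair and at 223 and 216 CPM in the mutant (-0.90), *COR47* had log2 fold changes of -0.53 and 0.90 against the own-table and second pair, and *COR6.6* of 0.09 and 0.73. None of these 3 was called. Over the list, 4 of 12 members were UGs and 1 was a DG (*ZAT12*) against the own-table pair, and 3 of 11 were UGs against the second (1 by DESeq2). The call of *ZAT12* was lost with DESeq2.

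Genes of aliphatic glucosinolate synthesis were higher in *frs7 frs12* than in the own-table pair, but not than in the second pair. Glucosinolates are sulfur compounds of the cabbage order that deter herbivores, and their methionine-derived class is controlled by MYB28 and MYB29. Of 21 tested members, 8 were UGs and none was a DG (0 at an unadjusted p below 0.05 and 0 by DESeq2) against the own-table pair, with a median log2 fold change of 0.91. Against the second pair, none was a UG (0 at an unadjusted p below 0.05 and 0 by DESeq2) and 1 was a DG, with a median of -0.32. There, 20 of 21 members had log2 fold changes below 0, 9 of them at an unadjusted p below 0.05 and 5 at an adjusted p below 0.05. The second Col-0 pair itself had 12 UGs of 21 against the own-table pair. The summed level was 478 and 518 CPM in the own-table pair, 849 and 848 CPM in *frs7 frs12*, and 1295 and 850 CPM in the second pair, of which 1 library was thus level with the mutant. *MYB29* was at 0 and 0.162 CPM in the own-table pair, at 1.29 and 1.83 CPM in *frs7 frs12* and at 9.04 and 2.75 CPM in the second pair. It had 50 counts in the mutant and 2 in the own-table pair, a ratio of 21.2 (95% counting interval 5.56 to 180), and its log2 fold change against the second pair was -1.88 ± 0.47 (edgeR adjusted p = 0.0262), a call lost without 3 of the 4 libraries. *MYB28*, the other regulator, was a UG at the threshold against the own-table pair (1.01) and was at 0.02 against the second. *GSTU20*, *MAM1* and *BCAT3*, the most abundant members, had log2 fold changes of 1.36, 0.45 and 0.45 against the own-table pair and of -0.51, -0.12 and -0.32 against the second.

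In indole glucosinolate synthesis, which starts from tryptophan, 4 of 13 tested members were DGs against the own-table pair and none was a UG (5 were higher at an unadjusted p below 0.05, and DESeq2 called 0), with a median of -0.17, and 1 was a DG against the second. That gene was *CYP81F4*, a monooxygenase of the last steps that overlaps AT4G37409, at 235.5 and 266 CPM in the own-table pair, 39.4 and 21.7 CPM in the second pair and 11.3 and 12.3 CPM in *frs7 frs12*. It fell by 4.41 ± 0.11 (edgeR adjusted p = 4.11e-20) and by 1.36 ± 0.22 (edgeR adjusted p = 0.00138), and the second call was lost without 1 library of the second pair. *IGMT1*, a methyltransferase that acts in the same branch, fell by 3.53 against the own-table pair and was at -0.87 against the second. *GSTF9*, *GSTF10* and *PEN2*, the most abundant members, were at -0.32, 0.53 and 0.93 against the own-table pair and were not called.

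For jasmonate, the hormone of wounding, 4 of 14 tested members were DGs and 1 was a UG (*JAZ10*, lost with DESeq2) against the own-table pair, and 1 was a DG against the second. *AOC2*, a gene for allene oxide cyclase in jasmonate synthesis, was at 35.9 and 34.0 CPM in the own-table pair, at 33.6 and 35.9 CPM in the second pair and at 8.91 and 7.28 CPM in *frs7 frs12*. The 2 Col-0 pairs coincided for this gene and the mutant lay below both, with a fall of 2.13 ± 0.15 (edgeR adjusted p = 1.66e-11) and of 2.1 ± 0.15 (edgeR adjusted p = 4.93e-07), kept under DESeq2 and without any single library. Its neighbour *AOC1* was at log2 fold changes of 0.45 and 0.98 and was not called, and *AOC3* was a DG against the own-table pair (-1.50) and was not called against the second (-0.20). *AOS*, *JAR1* and *NINJA*, the most abundant members, were at -0.12, -0.23 and -0.17 against the own-table pair. *NINJA* encodes the adaptor that binds FRS7 and FRS12.

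Among the auxin-response genes of the Aux/IAA and GH3 families, 4 of 14 were UGs and 1 was a DG against the own-table pair, and 1 was a UG and 1 was a DG against the second. *IAA1* fell against both pairs (by 1.23 and 1.05), although without the first mutant library it was called against neither. *GH3.3*, which encodes an enzyme that conjugates auxin to amino acids, was at 88.8 and 102 CPM in the own-table pair, at 149 and 133 CPM in *frs7 frs12* and at 55.1 and 52.8 CPM in the second pair. The mutant was the highest, and the gene was a UG against the second pair (1.39 ± 0.09, edgeR adjusted p = 3.03e-07) but short of the fold threshold against the own-table pair (0.56 ± 0.09). *IAA29* and *IAA19*, which follow elongation growth, rose by 1.27 and 1.05 against the own-table pair and were at 0.43 and 0.24 against the second. *IAA7* and *IAA2*, which with *GH3.3* were the most abundant members, had log2 fold changes of 0.60 and -0.63 against the own-table pair and were not called.

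*PIF4*, the other known target, was at 204 and 188 CPM in the own-table pair, at 103 and 106 CPM in *frs7 frs12* and at 103 and 105 CPM in the second pair. The mutant and the second pair were level (log2 fold change 0.01 ± 0.09), and against the own-table pair the value of -0.91 ± 0.08 (edgeR adjusted p = 1.8e-09) was short of the fold threshold. In the PIF and shade list, 1 of 11 tested members was a UG (*PIL1*) and none was a DG against the own-table pair (4 were lower at an unadjusted p below 0.05, and DESeq2 called 0), and none was called against the second pair (3 had higher and 2 had lower levels at an unadjusted p below 0.05, and DESeq2 called 0). *PIF5* and *PAR1*, with *PIF4* the most abundant members, were at -0.67 and -0.03 against the own-table pair. In the light signalling list, *HYH* was the 1 UG against the own-table pair and *HY5* the 1 DG against the second (-1.16, lost with DESeq2), while the abundant photoreceptor genes *PHYA*, *CRY1* and *UVR8* were at -0.49, -0.39 and -0.36 against the own-table pair.

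In the expansin and XTH list, whose products loosen walls, *EXPA1* was a UG (1.05) and *EXPA4* a DG (-1.21) among 14 members against the own-table pair, and none was called against the second (5 had higher and 5 had lower levels at an unadjusted p below 0.05, and DESeq2 called 0). *XTH4* and *XTH24*, with *EXPA1* the most abundant, were at 0.62 and 0.36 against the own-table pair. In the gibberellin list, *GA3OX1* and *GID1B* were the 2 DGs of 11, and *GA2OX2* was the 1 DG against the second pair (-1.26, lost with DESeq2). The DELLA genes *RGA1* and *GAI* and the receptor gene *GID1C*, the most abundant, were at 0.37, 0.49 and -0.47. In the brassinosteroid list, *BR6OX2* was the 1 UG of 11 (1.21), *CPD*, *BRI1* and *BIN2*, the most abundant, were at -0.32, -0.48 and -0.98, and none was called against the second pair (2 had higher and 2 had lower levels at an unadjusted p below 0.05, and DESeq2 called 0).

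Root genes were lower in *frs7 frs12* than in the own-table pair, and none was called against the second pair. The Casparian strip seals the endodermis, suberin coats it, and root hairs take up nutrients, so these lists mark the root within whole seedlings. In bulk samples such as these, fewer cells of a type and less RNA per cell cannot be told apart. Against the own-table pair, 6 of 9 Casparian strip genes, 10 of 10 suberin genes and 6 of 6 root hair genes were DGs, with median log2 fold changes of -1.08, -4.06 and -2.91. The root hair list has 8 entries, and members with few counts in both groups were not tested, so its full share may owe to the filter. Against the second pair none of the 9, 7 and 2 tested members was called, with medians of 0.21, -0.82 and 1.22, and all 7 suberin genes had log2 fold changes below 0. Only these 7 of the 10 suberin genes passed the filter there, so their shared direction may owe to it. There, 1 Casparian strip gene and 1 root hair gene were higher and 3 suberin genes were lower at an unadjusted p below 0.05, and DESeq2 called 0. The second Col-0 pair itself had 8, 8 and 6 DGs in these lists against the own-table pair. *CASP1*, a scaffold of the Casparian strip, was at 60.1 and 61.1 CPM in the own-table pair, at 16.3 and 13.0 CPM in *frs7 frs12* and at 18.15 and 13.4 CPM in the second pair. *ESB1* and *PER64*, with *CASP1* the most abundant of its list, were at -1.08 (a DG) and -0.82 (not called) against the own-table pair. *ABCG6*, a transporter of suberin monomers, was at 39.0 and 41.4 CPM, at 0.609 and 0.500 CPM and at 2.85 and 0.722 CPM in the same order. *CYP86A1* and *ABCG20*, the next most abundant suberin genes, fell by 5.08 and 1.29 against the own-table pair, and the root hair genes *RHD2*, *PRP3* and *LRX1* fell by 3.27, 2.99 and 3.76. The summed level of the shoot list, 21 nuclear genes of the photosystems and Rubisco, was 147600 and 150900 CPM in the own-table pair, 151800 and 138900 CPM in the mutant and 146500 and 147100 CPM in the second pair. The part of organ proportions in the root values was not tested.

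**Figure D3:**
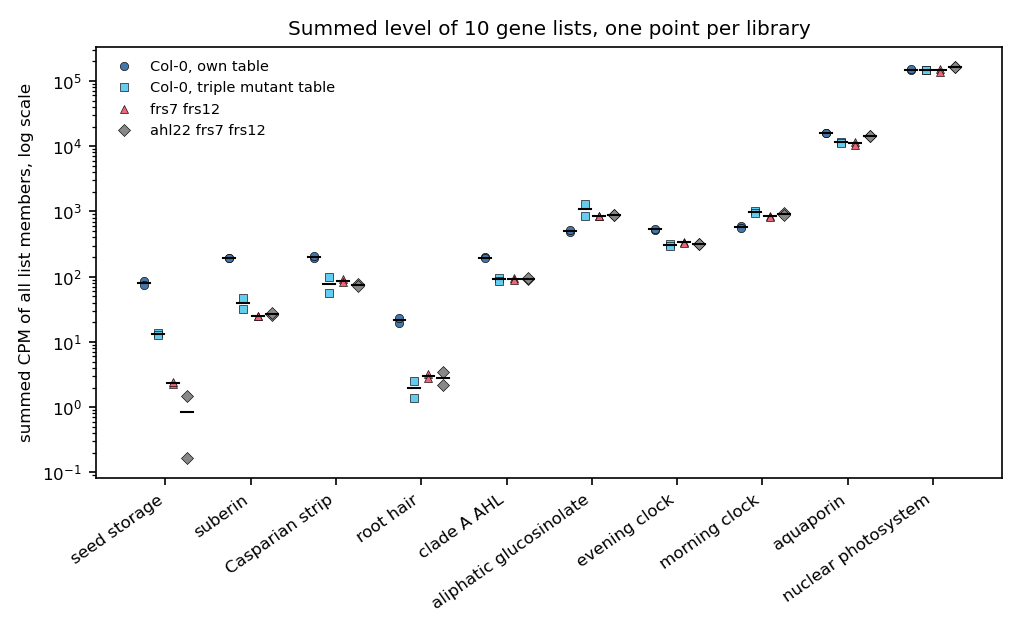
Summed CPM of all members of 10 lists on a log axis, with a point for each library and a bar at the mean of 2, in both Col-0 pairs, *frs7 frs12* and *ahl22 frs7 frs12*. Suberin genes sum to 193 and 192 CPM in the own-table pair, 47.9 and 31.6 CPM in the second pair and 25.2 and 24.6 CPM in *frs7 frs12*, root hair genes to 19.8 and 23.2, 2.50 and 1.38, and 3.197 and 2.83 CPM, and photosystem genes to 138900 to 151800 CPM in these groups and to 162700 and 165800 CPM in *ahl22 frs7 frs12*.

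Within the photosystem list, 1 gene stood out. *LHCB2.1* (AT2G05100), for a light-harvesting protein of photosystem II, was at 6804 and 7216 CPM in the own-table pair, at 6107 and 5808 CPM in the second pair and at 2091 and 1888 CPM in *frs7 frs12*. It fell by 1.82 ± 0.09 (edgeR adjusted p = 5.57e-14) and by 1.57 ± 0.09 (edgeR adjusted p = 4.23e-08), and both calls were kept under DESeq2 and without any single library. In *ahl22 frs7 frs12*, which carries both insertions too, it was at 6376 and 6594 CPM, within the range of Col-0. Its neighbour *LHCB2.2*, which encodes a closely related protein, was at 0.05 and 0.31, and the other 19 members were not called in either comparison. *LHCB1.3*, *RBCS1A* and *RBCS3B*, the most abundant, were at -0.01, -0.02 and -0.64 against the own-table pair. Reads of such related genes may be divided between them differently by the counting, which was not tested.

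Among nutrient uptake genes, 9 of 17 in the iron list, 3 of 8 in the nitrate and ammonium list and 9 of 19 aquaporin genes were DGs against the own-table pair. Iron deficiency genes such as *IRT1*, the iron transporter of the root epidermis, and *FRU*, its transcriptional activator, were among the DGs of the iron list, whose median was -1.78. None of 13 was called against the second pair (median 0.15, with 3 higher and 1 lower at an unadjusted p below 0.05, and DESeq2 called 0). The abundant members *FER1*, *BTS* and *FRO3*, which store, sense and reduce iron, were at 0.69, -0.9997 and -0.02 and were not called. The ammonium transporter genes *AMT1;1*, *AMT1;2* and *AMT1;3* were the 3 DGs of 8 in the nitrate and ammonium list (-1.66, -3.73 and -6.22). *AMT1;3* was at 63.0 and 62.5 CPM in the own-table pair, at 0.990 and 0.723 CPM in *frs7 frs12* and at 2.09 and 2.099 CPM in the second pair, and none of the list was called against the second pair (2 higher and 3 lower at an unadjusted p below 0.05, and DESeq2 called 0). The nitrate assimilation genes *NIA2*, *NIA1* and *NIR1*, the most abundant, were at 0.07, 0.24 and 0.82 and were not called. The aquaporin DGs ranged from *TIP1;1* (-1.01) to *TIP2;3* (-5.81), and the most abundant, *TIP1;2*, *TIP2;1* and *PIP1;2*, were at 0.16, -0.68 and -1.16, of which *PIP1;2* was a DG. *PIP2;3* was the 1 DG against the second pair (-1.04, beside -1.12 against the own-table pair), a call lost without either of 2 libraries. Over the aquaporin list, 9 genes were lower and 1 was higher than in the second pair at an unadjusted p below 0.05 (6 and 1 at an adjusted p), with a median of -0.29.

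The clade A *AHL* genes, which encode the plant-specific AT-hook proteins related to AHL22, were low in *frs7 frs12* and in the second pair alike. Of 14 tested members, 8 were DGs and none was a UG against the own-table pair (1 was higher at an unadjusted p below 0.05, and DESeq2 called 0 UGs), with a median log2 fold change of -1.22, and 7 of the 14 were DGs of the second pair against the own-table pair. None of 10 was called against the second pair (median -0.12, with 2 higher and 1 lower at an unadjusted p below 0.05, and DESeq2 called 0). The list summed to 198 and 190 CPM in the own-table pair, 96.2 and 88.4 CPM in the mutant and 97.0 and 85.5 CPM in the second pair. *AHL19* was at 19.2 and 15.3 CPM, at 0.685 and 0.556 CPM and at 2.02 and 0.918 CPM in these groups. *AHL15*, *AHL17* and *AHL23*, the most abundant members, were at -0.31, -0.35 and -1.97, of which *AHL23* was a DG.

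In the flavonoid list *MYB111*, an activator of flavonol synthesis, was a UG (2.85) and *TT4*, chalcone synthase, a DG near the fold threshold (-1.03) among 7 tested members, and *UGT78D2* and *TT5* were at 0.22 and 0.58. None of 8 was called against the second pair (1 higher and 2 lower at an unadjusted p below 0.05, and DESeq2 called 0). In the heat shock list *HSP70* (AT3G12580) was the 1 DG of 5 (-1.10), *HSP90.1* and *HSP101* were at -0.96 and -0.51, and none was called against the second pair (1 lower at an unadjusted p below 0.05, and DESeq2 called 0). In the salicylate immunity list *PR5* was a UG (1.21, lost with DESeq2) and *ALD1* a DG (-2.90) among 9, and the most abundant members, the resistance genes *SNC1* and *RPP4*, which have near-identical copies, and *ICS1*, were at -0.22, 0.49 and 0.85. None of 8 was called against the second pair (1 higher and 1 lower at an unadjusted p below 0.05, and DESeq2 called 0).

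The genes with the largest changes against the own-table pair were of 2 kinds, those that differed from both Col-0 pairs and those that differed from 1 only. AGP30, an arabinogalactan protein of the root, had 2 counts in the mutant, 709 in the own-table pair and 11 in the second pair, a ratio of 418 (95% counting interval 115 to 3460) and of 5.78 (1.26 to 53.7). The peroxidase gene AT2G38390 likewise had 3, 494 and 29 counts, a ratio of 194 (66.1 to 946) and of 10.2 (3.15 to 52.1). AT5G47060, of unknown function, was a UG against the own-table pair (2.98 ± 0.26), at 1.99 and 1.22 CPM there and at 12.2 and 13.5 CPM in *frs7 frs12*, but was at 12.03 and 12.5 CPM in the second pair. For these 3 genes the mutant was nearer to the second pair.

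Of the DGs with the largest changes, 4 genes had no counts in *frs7 frs12*. AT2G04380 was at 40.9 and 42.5 CPM in the own-table pair, at 25.3 and 26.1 CPM in the second pair and at 0 in both mutant libraries. With a floor of 3 counts in the shallower mutant library, the level in the own-table pair was at least 182-fold higher and that in the second pair at least 113-fold higher. AT2G04378, which overlaps it on chromosome 2 (1525029 to 1526875, and 1525642 to 1526767 for AT2G04380), was at 19.0 and 23.2 CPM, 19.3 and 16.1 CPM and 0, at least 92.2-fold and 77.5-fold lower, and reads of the overlap cannot be assigned with certainty. AT2G04800, also on chromosome 2, was at 19.0 and 13.4 CPM, 3.89 and 4.33 CPM and 0, at least 70.8-fold and 18-fold lower. In *ahl22 frs7 frs12* these 3 genes were at the level of the second Col-0 pair or above it, with AT2G04380 at 31.8 and 29.5 CPM. AT3G18535, annotated as a tubulin-tyrosine ligase, was at 35.2 and 43.8 CPM in the own-table pair, at 13.5 and 14.5 CPM in the second pair and at 0 in *frs7 frs12*, at least 173-fold and 61.3-fold lower, and it was at 0 in the triple mutant too.

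Other DGs called against both pairs kept a low level in the mutant. *JAL33* (AT3G16450), a jacalin-related lectin gene, was at 380 and 386 CPM in the own-table pair, at 219 and 140 CPM in the second pair and at 2.74 and 1.72 CPM in *frs7 frs12*. It fell by 7.47 ± 0.14 (edgeR adjusted p = 9.45e-22) and by 6.36 ± 0.24 (edgeR adjusted p = 5.29e-10), and it was at 2.399 and 2.83 CPM in *ahl22 frs7 frs12*. *MRD1* (AT1G53480), named for its decline in a methionine-accumulating mutant, was at 31.9 and 26.9 CPM, 35.8 and 33.4 CPM, and 0.457 and 0.334 CPM in the mutant, and was at 26.0 and 24.9 CPM in the triple mutant and at 0.209 and 0.725 CPM in *hda15-1*. Its low level therefore occurred in *frs7 frs12* and *hda15-1* and not in *ahl22 frs7 frs12*. *MRD1* overlaps *HEI10* (AT1G53490), itself a DG against both pairs (-1.97 and -1.68), and reads of the overlap cannot be assigned with certainty. *ICL* was at 27.8 and 25.9 CPM in the own-table pair, at 27.5 and 38.0 CPM in the second pair and at 3.27 and 1.67 CPM in the mutant, a fall of 3.5 ± 0.22 and of 3.77 ± 0.25. *ICL* was also at 5.17 and 3.01 CPM in *ahl22*. *GSTU8*, a glutathione transferase gene with 1 near-identical copy, fell by 4.94 and 4.30, and *TPS-CIN* (AT3G25830), a terpene synthase gene for 1,8-cineole with near-identical copies that may share its reads, fell by 4.79 and 3.48.

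The UGs called against both pairs included 1 gene with a very large change. AT2G05915, of unknown function on chromosome 2 (2263816 to 2264265), was at 0 and 0.162 CPM in the own-table pair, at 0.487 and 0.131 CPM in the second pair and at 128 and 110 CPM in *frs7 frs12*, where it had 3665 counts against 2 in the own-table pair, a ratio of 1550 (95% counting interval 429 to 12800). It rose by 8.58 ± 0.23 on the log2 scale (edgeR adjusted p = 1.1e-11) against the second pair, and it was at 0.0750 and 0.0832 CPM in *ahl22 frs7 frs12*. AT3G21080, annotated as an ABC transporter-like protein, was at 0.926 and 0.892 CPM, 2.36 and 1.31 CPM, and 19.6 and 21.2 CPM, and rose by 4.47 ± 0.24 and 3.48 ± 0.24. AT3G05150, annotated as a transporter of the major facilitator superfamily, was at 11.8 and 11.0 CPM, 6.398 and 5.44 CPM, and 42.8 and 40.7 CPM. AT1G50290, AT5G65650 and AT1G35320, of unknown or tentative function, rose by 2.37, 2.07 and 1.97 against the own-table pair and by 2.11, 2.43 and 3.03 against the second. Of 18602 genes tested in the triple mutant against the second pair, 0.548% were UGs (102) and 0.903% were DGs (168), and the genes just named other than AT2G05915 were UGs there too, for example AT3G21080 at 17.5 and 18.7 CPM. *HTA4*, a histone H2A gene that overlaps AT4G13564, and its neighbour AT4G13572 rose by 3.37 and 3.08 against the own-table pair and by 1.66 and 1.86 against the second.

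For 3 of the UGs with the largest changes, the libraries of a group differed widely. AT2G01008, at the end of chromosome 2 with 8 near-identical copies, was at 4.49 and 51.0 CPM in the 2 mutant libraries, and AT3G41762 was at 11.2 and 124.9 CPM. Without the second mutant library their log2 fold changes went from 5.14 to 2.48 and from 4.50 to 1.86 against the own-table pair, and against the second pair from 3.62 to 0.95 (edgeR adjusted p = 0.624) and from 3.61 to 0.97 (edgeR adjusted p = 0.508), where they were no longer called. AT2G08986 was at 29.1 and 79.4 CPM in the mutant, at 0.214 and 0.162 CPM in the own-table pair and at 28.5 and 0 CPM in the second pair, so that 1 Col-0 library was level with a mutant library. The second mutant library was the deepest of the 4 and had 1520 genes with a count in none of the other 3, against 547 for the first.

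**Figure D4:**
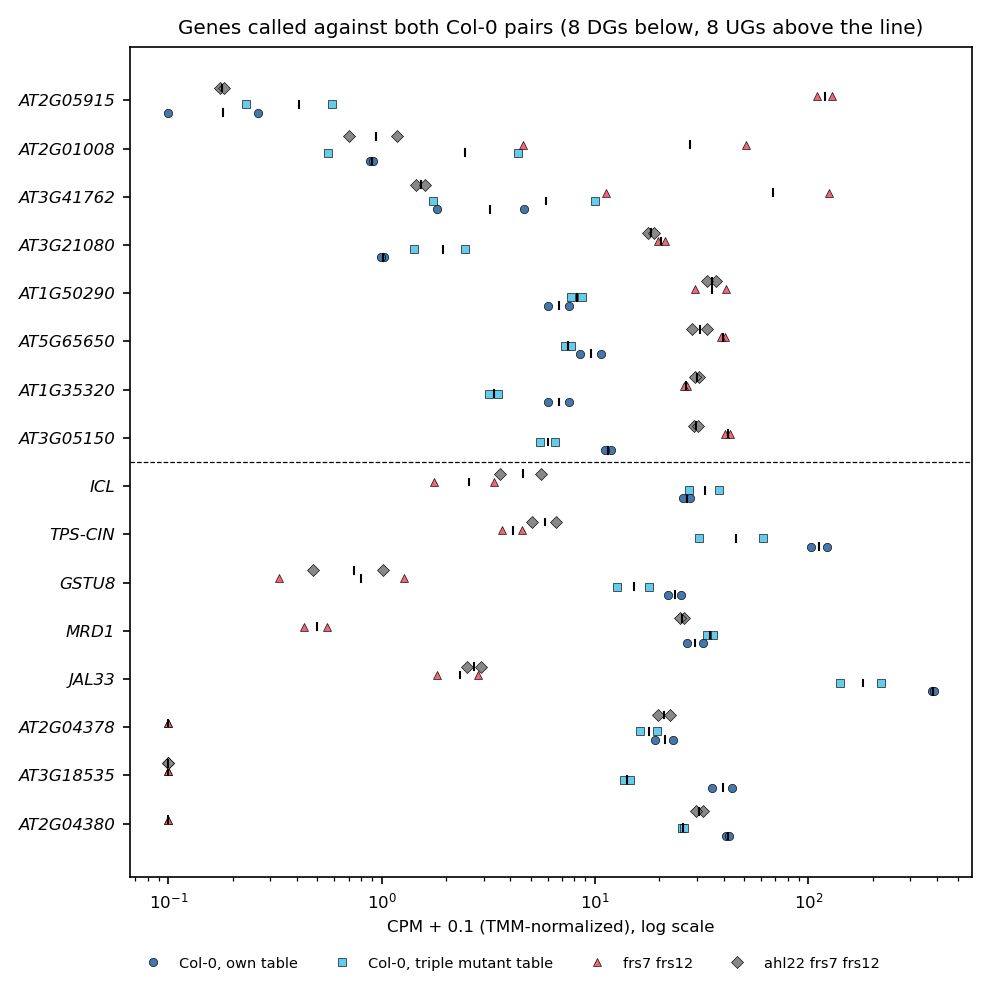
Level (CPM + 0.1, log axis) of the 16 genes with the largest changes among those called against both Col-0 pairs, with a point for each library and a bar at the mean of 2. The genes were chosen so that the *frs7 frs12* points overlap with neither pair, so their separation was set by the choice. For AT2G01008 and AT3G41762 the lower *frs7 frs12* point (4.49 and 11.2 CPM) still lies close to a library of the second pair (4.24 and 9.88 CPM). AT2G05915, AT2G04378, AT2G04380 and *MRD1* are near the Col-0 level in the triple mutant.

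Of the 72 UGs and 134 DGs called against both pairs, 33 and 58 kept both calls under DESeq2 and without each library in turn. Further members, chosen after their values were seen, included genes of immunity, flowering and phosphate supply. Of these, *RPP8* and *ESM1* kept both calls in all those settings, and the calls of *EFR*, *FRK1*, *MAF3*, *PHO1* and *IPS1* against the second pair were each lost without 1 or 2 of the libraries. *EFR*, the receptor of bacterial elongation factor, was at 2.13 ± 0.19 CPM (SD, n = 2) in the own-table pair, 4.59 ± 0.0011 CPM in the second pair and 10.1 ± 1.04 CPM in *frs7 frs12*, and rose by 2.25 and 1.15. *FRK1*, a kinase gene induced by flagellin, rose by 1.47 and 1.29. *RPP8*, a resistance gene, fell by 1.23 and 1.88. *MAF3*, a repressor of flowering related to *FLC*, was at 9.85 ± 0.28 CPM, 12.1 ± 2.89 CPM and 25.2 ± 2.70 CPM, and rose by 1.35 and 1.07. *ESM1*, which acts in the breakdown of glucosinolates, was at 102.1 ± 11.2 CPM, 158.2 ± 16.5 CPM and 41.4 ± 4.70 CPM, and fell by 1.31 and 1.93. *PHO1*, which loads phosphate into the xylem, fell by 3.05 and 1.11, and *IPS1*, a non-coding RNA of phosphate starvation, rose by 2.12 and 1.25.

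The genes called against both pairs were spread unevenly over the genome. They were 206 of 18300 genes with a position (1.13%), made up of 22 of 4819 on chromosome 1 (0.457%), 40 of 2760 on chromosome 2 (1.45%), 77 of 3632 on chromosome 3 (2.12%), 25 of 2799 on chromosome 4 (0.893%) and 42 of 4290 on chromosome 5 (0.979%). On chromosome 3, which holds *FRS7*, the share was 3.02% in the first 12 Mb (66 of 2184) and 0.76% from 12 to 24 Mb (11 of 1448). On chromosome 2, which holds neither *FRS7* nor *FRS12*, it was 7.41% in the first 6 Mb (26 of 351) and 0.581% from 6 to 20 Mb (14 of 2409). Of the 206 genes, 111 (53.9%) were called in the same direction in *ahl22 frs7 frs12* against the second pair. That share was 75.8% in the first 12 Mb of chromosome 3 (50 of 66) and 7.69% in the first 6 Mb of chromosome 2 (2 of 26). Genes not tested in the triple mutant count there as not called. Against the own-table pair, 391 of 2184 and 240 of 1448 genes were called in these windows of chromosome 3, and 73 of 351 and 423 of 2409 in those of chromosome 2. Those shares ranged from 16.6% to 20.8%, beside 16.6% of all genes with a position (3030 of 18300). Calls against the own-table pair were thus spread more evenly over these windows than calls against both pairs. The windows were set after the positions had been seen, neighbouring genes are not independent, and no test was made. The first 12 Mb of chromosome 3 held *JAL33*, *GSTU8*, *AOC2*, *ICL*, *ESM1*, AT3G18535, AT3G21080, AT3G05150 and *TPS-CIN*, and the first 6 Mb of chromosome 2 held AT2G05915, AT2G04378, AT2G04380, AT2G04800 and *LHCB2.1*. Within 2 Mb of *FRS7* the share was 1.64% on the left and 3.46% on the right, and it was 5.03% at 6 to 8 Mb. Around *FRS12* it was 0.469% and 0.542% within 2 Mb, and 4% at 10 to 12 Mb.

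**Figure D5:**
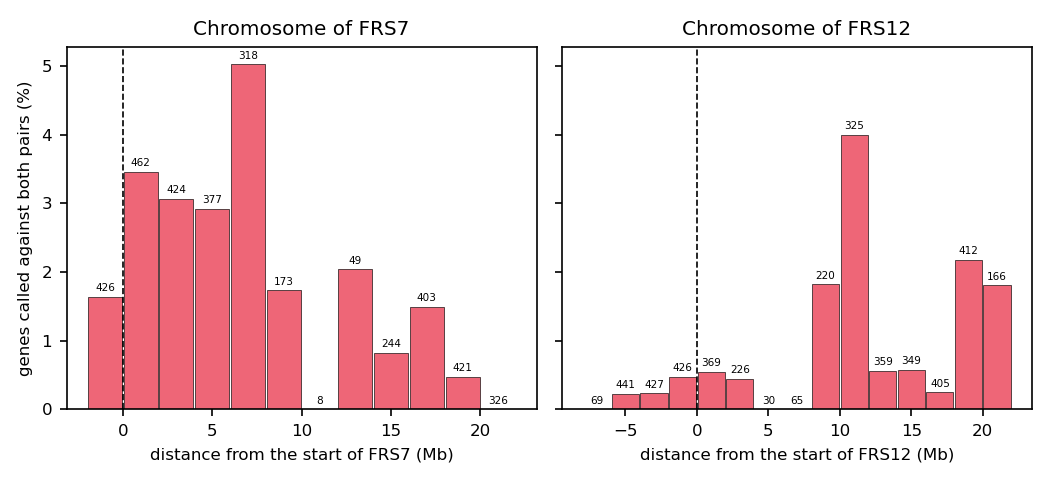
Share of tested genes called in the same direction against both Col-0 pairs in bins of 2 Mb along chromosome 3, by distance from the start of *FRS7*, and along chromosome 5, by distance from the start of *FRS12*, with the number of genes tested above each bar. The share is 1.64% to 5.03% from 2 Mb before to 8 Mb after *FRS7* and 0.469% to 0.542% within 2 Mb of *FRS12*, and bins with under 20 genes, such as that at 10 to 12 Mb from *FRS7*, carry little weight.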

How the data were processed

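Poly(A) RNA of whole 5-day-old seedlings was sequenced, 2 biological replicates per genotype. The labels and the study's methods differ in growth medium and library kit, so neither is given. The authors deposited raw counts per gene. Their processing notes name HISAT2, Subread and TAIR10, and the strand setting is not given in the sources used here, so overlapping genes are uncertain. From these counts, R 4.3.3 with edgeR 4.0.16 gave TMM-normalized CPM over all 12 libraries and quasi-likelihood tests (filterByExpr, Benjamini-Hochberg) on the 4 libraries of each comparison. DESeq2 1.42.0, other scalings, filters, thresholds and left-out libraries were alternatives. Fits were tested on simulated data.

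Of 27416 genes, 26719 matched RefSeq TAIR10.1, the source of names, positions and sequences. Near-identical copies were alignments of at least 150 bases at 95% identity (blastn 2.17.0). Counting intervals (95%) and floors (3 counts in the shallower mutant library) cover counting error only.

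Genes and lists were chosen with earlier results of these data known. Named genes are the mutated genes, the FHY3/FAR1/FRS family, the 8 UGs and 8 DGs with the largest changes that do not overlap between groups and reach 10 CPM, the 8 and 8 called against both Col-0 pairs by the smaller change, and the 3 most abundant genes of each list. The 8 and 8 called against both pairs were also required to overlap with neither pair and to reach 10 CPM. The comparison with the triple mutant and the summaries by position were added after the data were seen.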

Additional observations from a re-analysis of the deposited data

How the results depend on the processing

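With an adjusted p alone, the UGs and DGs were 4970 and 5421 against the own-table pair, 597 and 672 against the second pair, and 339 and 395 against both, and the called list genes went from 110 to 224. With a test against a 2-fold change (glmTreat) the counts were 368 and 1300, 22 and 42, 17 and 36, and 70. With the 4 Col-0 libraries as 1 group there were 61 UGs, 121 DGs and 7 called list genes. With at least 10 counts in every library, 41 UGs were called against both pairs and 69 list genes against the own-table pair. With 1 library left out, UGs and DGs ranged from 1259 to 1514 and from 1958 to 2361 against the own-table pair, from 73 (without *frs7 frs12* replicate 1, and 76 without replicate 2) to 173 and from 126 (without *frs7 frs12* replicate 1) to 343 (without 1 library of the second pair) against the second, and from 43 to 45 and from 84 to 97 against both when a mutant library was left out. DESeq2 called 1081 UGs and 2045 DGs against the own-table pair, and 85 and 158 against the second. With the replicate number as a block there were 1346 UGs and 2228 DGs in the own table. Differences between same-numbered replicates correlated at 0.062 over 19144 genes, so no shared replicate effect was visible. That value cannot show whether same-numbered libraries were handled together. The second pair, tied to no labelled replicate, was not blocked. Of the values for single genes, none changed direction. With 2 libraries per group, calls at low counts are limited by depth.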
